A study of Mus musculus with 38 samples.

Results

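The 9 genes studied here belong to adrenergic and cyclic AMP (cAMP) signalling in mouse brown fat and are the receptors Adrb1, Adrb3, Adra1a and Adra2a, the G protein gene Gnas, the protein kinase A (PKA) subunits Prkaca and Prkar2b, the phosphodiesterase Pde3b and the transcription factor Creb1. They were taken as the rows whose gene name on the array equals one of these symbols, which gave 9 of the 29411 gene names present. Brown adipose tissue of C57BL/6J mice, weaned at 3 to 4 weeks of age and divided into 5 groups of 30, was profiled on 38 arrays of 1 colour. LFC mice ate a low fat diet with 10% of calories from fat, and HFC mice a diet high in fat (60% of calories) with added sucrose. HF5, HF20 and HF75 mice ate the HFC diet and received 5, 20 or 75 µg of the ethano-botanical formulation Kal-1, so that HFC is the untreated control of all Kal-1 groups. LFC and HFC were sampled at 10 time points (Day 6, 10 and 14, and Weeks 0, 3, 6, 9, 12, 15 and 18), and the Kal-1 groups at the 6 time points from Week 3. The protocol names 5 mice killed per group and interval, and 1 array per group and time point was used here. The time points therefore served as the replicates of a group, and the labels do not say which arrays came from separate animals. In comparisons of groups, p-values rest on the spread between arrays left once differences between time points are taken out. In the trend over days they rest on the spread around the fitted line.

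Noradrenaline from sympathetic nerves acts on brown adipocytes mainly through beta receptors, among which Adrb3 is the one typical of fat cells. Beta receptors couple through the stimulatory G protein alpha subunit, encoded by Gnas, to adenylyl cyclase, which makes cAMP, whereas the alpha-2 receptor Adra2a couples to inhibitory G proteins and the alpha-1 receptor Adra1a to phospholipase C. Cyclic AMP releases the catalytic subunit of PKA (Prkaca) from its regulatory subunits (Prkar2b is the main one of fat cells), PKA then phosphorylates lipolytic enzymes and CREB, and Pde3b, the phosphodiesterase through which insulin opposes lipolysis, breaks cAMP down.

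Values are log2 processed signal minus the 75th percentile of that array, so that 0 is the signal that 75% of an array's probes do not exceed. Where a gene had several probes, the probe with the highest mean was used. Probes differ in how strongly they bind, so levels were compared within a gene and never between genes. The probes behind the results that follow are shown to make plain which stretch of each transcript a value stands for. They are given 5′ to 3′ in lower case as deposited, whole for Gnas, Pde3b and Adra1a and as the first 30 of 60 bases for the others, and no base is singled out by capitals. The genes lie on mouse chromosomes 19 (Adrb1 and Adra2a), 8 (Adrb3 and Prkaca), 14 (Adra1a), 2 (Gnas), 12 (Prkar2b), 7 (Pde3b) and 1 (Creb1) in the RefSeq annotation of GRCm38.p6.
Adrb1: gttggaaggccattttgcacagtgttaggc
Adrb3: gggttcataggaagaagtcaaactattgga
Adra1a: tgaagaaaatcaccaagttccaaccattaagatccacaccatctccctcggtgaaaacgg
Gnas: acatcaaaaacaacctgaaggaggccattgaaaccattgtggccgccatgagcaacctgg
Prkaca: ttatccctgtgtttatccctctcgtaactt
Pde3b: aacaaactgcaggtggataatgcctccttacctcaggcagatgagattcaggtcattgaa

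The 38 arrays differed strongly in brightness, and the values of these genes moved with it. The 75th percentile of processed signal ran from 35.1 to 1209 units. On 11 arrays it exceeded 600, and these are called bright here. They were LFC at Weeks 0, 3, 9 and 12, HFC at Day 10 and Week 3, HF20 at Weeks 3, 6, 12 and 15, and HF75 at Week 3. The other 27 arrays, all 6 of HF5 among them, are called dim. The array labelled HF75 Week 3 also stood apart from its tissue label: Ucp1, the uncoupling protein that defines brown fat, read -3.07 there against 3.38 to 8.57 on the other 37, and 7 of 12 brown adipocyte markers were at their lowest of 38. The mean of 5 white adipocyte markers was 0.32 on that array against -4.89 to -1.78 on the others. On all other arrays the defining brown markers Ucp1 and Cidea were high (Cidea at least 5.58). Calls that include HF75 are therefore given with and without that array.

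All 9 genes were measurable, to differing degrees. Adrb3, Gnas, Prkaca, Prkar2b and Creb1 were well above background on all 38 arrays, Pde3b on 33, Adrb1 on 31, Adra1a on 28 and Adra2a on 27. Where a probe was not well above background, its value is only an upper limit. Adrb3 was saturated on 3 arrays and Prkar2b on 10, all of them bright, so these values are lower limits. All 9 passed the filter on dim probes, as did 21862 gene names in all.

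**Figure D1:**
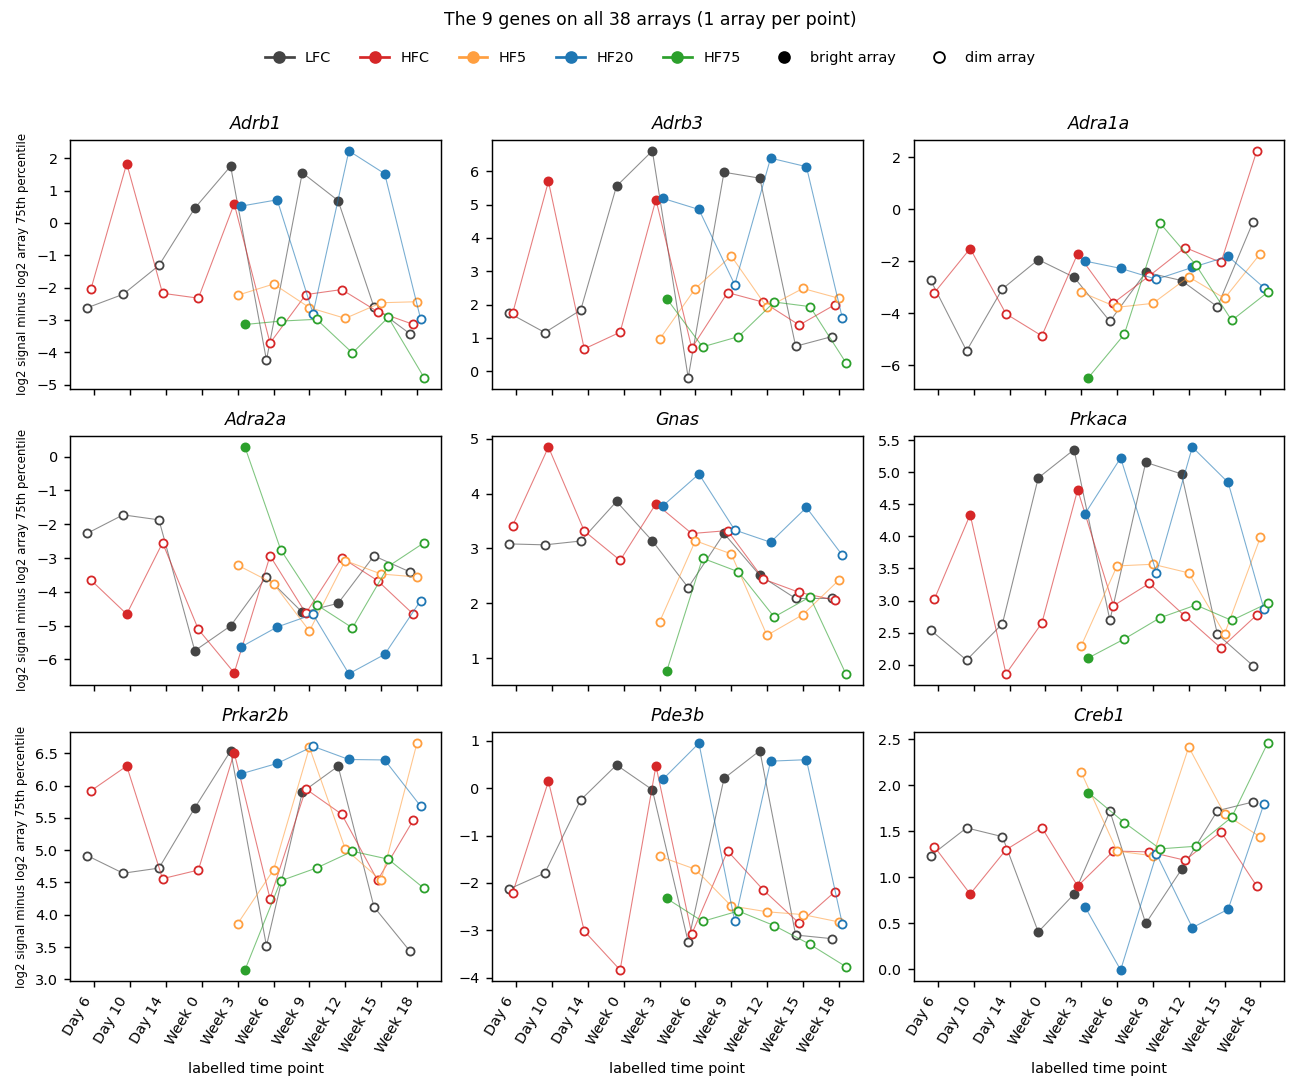
Value of each of the 9 genes (vertical axis, log2 signal relative to the 75th percentile of the array) at each time point (horizontal axis), with a line per group and filled points for bright arrays. Within Adrb1, Adrb3, Prkaca and Pde3b the filled points lie high whichever group they belong to, except for HF75 at Week 3, and levels may be compared within a panel only.

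The first question was whether the high fat, high sucrose diet moved these genes. None of the 9 differed between HFC and LFC over the 10 time points by limma with time point as a block. Of all 21862 genes tested 0% passed an adjusted p of 0.05, and 1434 had an unadjusted p under 0.05. Adrb3 ran from -0.19 to 6.61 with a median of 1.79 in LFC and from 0.67 to 5.70 with a median of 1.87 in HFC, so that the ranges overlapped almost entirely. The difference was -0.73 on the log2 scale (SE 0.77, adjusted p = 0.737). Adrb1 differed by -0.60 (SE 0.63, adjusted p = 0.737) and was higher in HFC at 4 of 10 time points.

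The steps behind the receptors gave the same picture of overlap. Gnas had a median of 3.29 in HFC and 3.07 in LFC and was higher in HFC at 7 of 10 time points (difference 0.30, SE 0.25, adjusted p = 0.691). Prkaca differed by -0.42, Prkar2b by 0.40, Pde3b by -0.78 and Creb1 by -0.02 (adjusted p from 0.673 to 0.973). The alpha receptors differed by 0.67 (Adra1a) and -0.58 (Adra2a), with adjusted p of 0.688 and 0.663. The 95% intervals were wide, from -2.41 to 0.95 for Adrb3 and from -0.24 to 0.84 for Gnas. At the 6 time points where both arrays were of the same brightness class, the difference of Adrb3 was -0.03 (95% interval -0.91 to 0.86) and that of Adrb1 was -0.13. Restricting the comparison to Weeks 3 to 18, in the fit of all 5 groups, called 0 of the 9, with 0.00915% of all genes called.

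Of 98 further genes of the pathway, 96 were on the array and 89 passed the filter. None of the 89 differed between HFC and LFC, and their median difference of 0.06 equalled that of all genes. The 3 with the smallest p were Elovl3, a fatty acid elongase induced by cold (-2.98), Ucp1 (1.17) and the phosphodiesterase Pde3a (1.33), each with an adjusted p of 0.663. The genes of noradrenaline synthesis, which sympathetic nerves transcribe in cell bodies outside this tissue, were hardly measurable: Th, tyrosine hydroxylase, was well above background on 1 of 38 arrays, Ddc on 5 and Dbh on 9, and the noradrenaline transporter Slc6a2 on 0. The monoamine oxidases Maoa and Maob, which clear noradrenaline, were well above background on all 38.

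The next question was whether Kal-1 moved the genes against the untreated HFC diet, with time point as a block over Weeks 3 to 18. None of the 9 genes passed at 5 µg, where 0% of all genes were called and 1191 had an unadjusted p under 0.05. The same held at 20 µg (0% called, 7249 unadjusted) and at 75 µg (0% called, 1998 unadjusted). At 5 µg Adra1a read lower than in HFC at 6 of 6 time points (difference -1.53, SE 0.72, adjusted p = 0.822), although neither array was well above background at Week 9 and HF5 was not at Week 18. Adrb3 differed by -0.03, Adrb1 by -0.22, Gnas by -0.63 and Creb1 by 0.53 at that dose. Against LFC, 0 of the 9 were called at 5 µg (0.00915% of all genes), at 20 µg (0% of all genes) or at 75 µg (0.0274% of all genes). The comparisons with HFC share the 6 HFC arrays, and those with LFC the 6 LFC arrays.

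At 20 µg the differences from HFC were the largest for the beta receptors, yet did not pass. Adrb3 had a median of 5.02 in HF20 and 2.03 in HFC (difference 2.19, SE 0.93, adjusted p = 0.125). Adrb1 differed by 2.08 (SE 0.87, adjusted p = 0.124), Prkaca by 1.23 (adjusted p = 0.130), Pde3b by 1.29 (adjusted p = 0.170), Gnas by 0.68 (adjusted p = 0.156), Prkar2b by 0.89 (adjusted p = 0.216) and Creb1 by -0.37 (adjusted p = 0.363). Of the 6 arrays of HF20 4 were bright, and of the 6 of HFC 1. At the 3 time points where both were of the same class, the differences were -0.16 for Adrb1 (95% interval -1.16 to 0.84), -0.04 for Adrb3 and -0.04 for Prkaca, and -0.81 for Pde3b. The pathway genes with the smallest p were the PKA inhibitor Pkia (1.31), the phosphodiesterase Pde4c (-1.29) and Dbh, dopamine beta-hydroxylase (-2.62), each with an adjusted p of 0.118.

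At 75 µg Gnas was lower than in HFC at 6 of 6 time points (difference -1.06, SE 0.34, adjusted p = 0.538) and Creb1 higher at 6 of 6 (0.54, SE 0.30, adjusted p = 0.568). Every one of these 6 time points paired arrays of the same brightness class. The smallest of these differences were -0.08 for Gnas (Week 15) and 0.03 for Creb1 (Week 9). How many of all genes kept 1 direction at 6 of 6 time points was not counted for any dose. Adra1a differed by -2.05 and Adra2a by 1.26 (adjusted p = 0.538 and 0.565), and without the HF75 Week 3 array by -1.46 and 0.46. Gnas then differed by -0.80. The Adra1a difference was -5.45 at Week 18, where HFC read 2.25, its highest value. Adra1a was well above background on 3 of the 6 HF75 arrays, as was Adra2a. Pkia had the smallest p of the pathway here too (1.25, adjusted p = 0.500), followed by the arrestin Arrb1 (0.69) and the CREB relative Atf1 (0.65). At 5 µg the 3 with the smallest p were Pde4c (-0.93) and the adenylyl cyclases Adcy7 (-1.13) and Adcy6 (1.47).

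**Figure D2:**
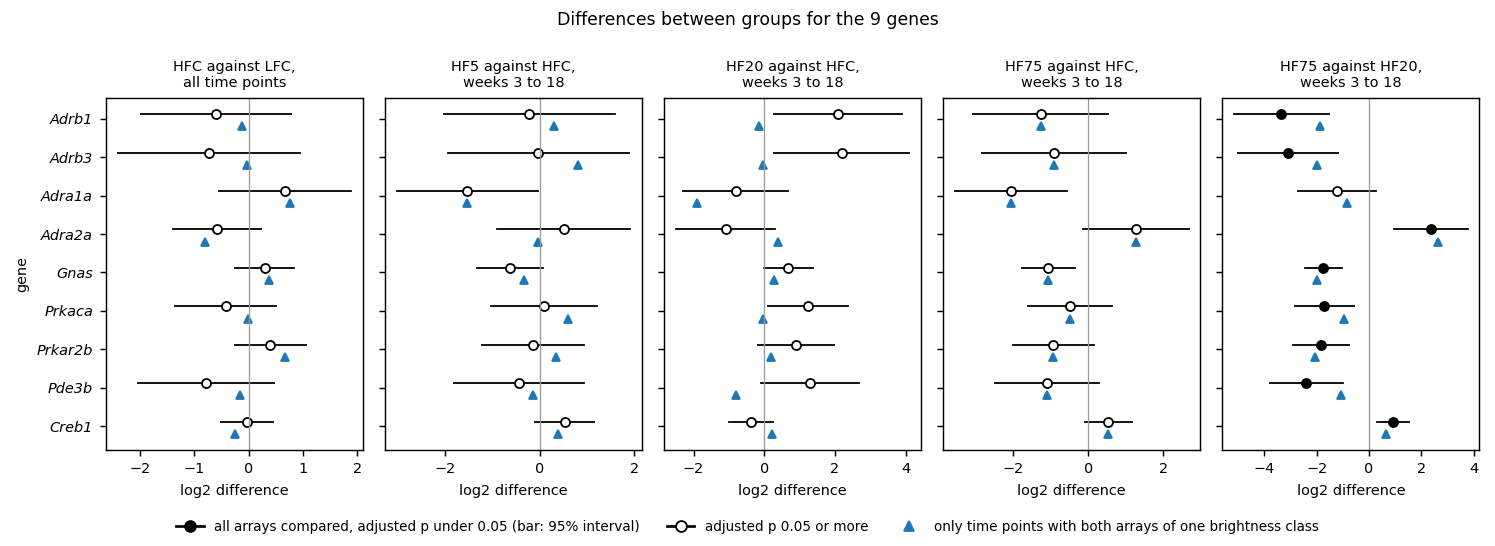
Difference in each of the 9 genes (horizontal axis, log2, with 95% interval) for HFC against LFC, the 3 Kal-1 doses against HFC, and HF75 against HF20, with filled points where the adjusted p was under 0.05 and triangles for the time points of one brightness class. Filled points occur only in the panel of HF75 against HF20, where 8 of 9 genes passed.

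Between the 75 and 20 µg groups 8 of the 9 genes were called, 6 lower and 2 higher in HF75, where 25.6% of all genes were called (2798 higher and 2794 lower, or 4673 and 2728 with signals raised to the background floor). Neither HF20 against HF5 (0% of all genes, 7914 unadjusted) nor HF75 against HF5 (0%, 506 unadjusted) called any. Between HF20 and HF5 the difference was 1.31 for Gnas (adjusted p = 0.067), -0.90 for Creb1 (adjusted p = 0.069) and 2.30 for Adrb1 (adjusted p = 0.081). Without Week 9, 5 of the 9 were called there with 4410 of all genes, and without Week 18, 4 of the 9 with 5214, Gnas, Creb1 and Adrb1 in both. With slide as a random block 7 of the 9 were called (6772 of all genes), and Gnas and Creb1 were called with array weights and over genes well above background on all arrays. Adrb1 ran from -4.78 to -2.92 with a median of -3.09 in HF75 and from -2.96 to 2.23 with a median of 0.62 in HF20. It read lower in HF75 at 6 of 6 time points, although at Week 9 neither array was well above background, and the difference was -3.35 on the log2 scale (SE 0.87, adjusted p = 0.017; -3.99 to -1.34 over the other settings). Adrb3 ran from 0.26 to 2.18 with a median of 1.49 in HF75 and from 1.61 to 6.40 with a median of 5.02 in HF20, lower at 6 of 6 (difference -3.09, SE 0.93, adjusted p = 0.024, with a range of -3.44 to -1.03 over the other settings). For Adrb3 and for Adrb1 5 of the 6 HF20 arrays lay above every HF75 array. For Adrb1 these were the 4 bright arrays and the dim array of Week 9 (-2.80), which was not well above background. The share of all genes placed likewise was not counted. Of the 6 HF75 arrays 3 were well above background for Adrb1.

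Gnas did not overlap between this pair of doses, where 25.6% of all genes were called. How many of all genes did not overlap there was not counted. The 6 arrays of HF20 read 3.78, 4.36, 3.34, 3.11, 3.75 and 2.88 from Week 3 to Week 18, and those of HF75 read 0.76, 2.82, 2.57, 1.75, 2.12 and 0.71. Every HF75 value lay below every HF20 value, the nearest being 2.82 (HF75 Week 6) and 2.88 (HF20 Week 18). The fitted difference was -1.75 (SE 0.34, adjusted p = 0.014). Over the other settings this difference ran from -1.98 to -1.42. At the bright pair of Week 3 Gnas differed by -3.02, and at the dim pairs of Weeks 9 and 18 by -0.76 and -2.16.

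Downstream of the G protein, the catalytic subunit gene Prkaca was lower in HF75 by 1.71 (SE 0.54, adjusted p = 0.028) and at 5 of 6 time points. Prkar2b ran from 3.15 to 4.98 in HF75 and from 5.68 to 6.61 in HF20 without overlap. The share of all genes without such overlap was not counted. The Prkar2b difference of -1.83 (SE 0.52, adjusted p = 0.021) is a lower limit in size, since 4 of the HF20 arrays were saturated. Pde3b was lower by 2.39 (SE 0.67, adjusted p = 0.020). The alpha-2 receptor Adra2a went the other way and was higher in HF75 (2.36, SE 0.68, adjusted p = 0.021, and 1.55 to 2.78 over the other settings). It was well above background on only 3 of 6 arrays of each group, those of Weeks 3, 6 and 15, and read higher in HF75 at all of these. Creb1 was higher at 6 of 6 as well (0.91, SE 0.30, adjusted p = 0.032), and Adra1a was not called (-1.24, adjusted p = 0.191). The members' median difference was -1.75 and that of all genes 0.29.

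These calls moved with brightness and with single arrays. Of the 6 HF20 arrays 4 were bright and of the 6 HF75 arrays 1, and at Weeks 6, 12 and 15 a bright HF20 array faced a dim HF75 array. With brightness or the brightness class as a covariate, or with normexp background correction, 0 of the 9 were called, and leaving out Week 6, 12 or 15 also left 0. The sizes moved to differing degrees. Over the other settings Gnas stayed between -1.98 and -1.42, while Prkaca ran from -2.29 to -0.63 and Pde3b from -2.91 to -0.89. At Weeks 3, 9 and 18, where the classes matched, Gnas differed by -1.98 (95% interval -3.41 to -0.55) and Adrb3 by -1.97 (-3.25 to -0.70). Prkar2b differed by -2.06 (-3.34 to -0.79) and Adra2a by 2.64 (-0.22 to 5.50), with adjusted p of at least 0.699 throughout. The Week 3 pair holds the HF75 array that stood apart from its tissue label. Adra2a differed by 5.92 there and by 0.28 and 1.72 at Weeks 9 and 18, where neither array was well above background for it. Prkaca differed by -2.24, -0.70 and 0.09 at Weeks 3, 9 and 18, and Pde3b by -2.52, 0.22 and -0.91. Without the HF75 Week 3 array 2 of the 8 genes were still called, where 8.27% of all genes were called. These were Adrb1 at -3.10 (adjusted p = 0.047) and Gnas at -1.48 (adjusted p = 0.044). Of 12 brown adipocyte markers 4 were called, all lower in HF75, where 25.6% of all genes were called (median difference -1.94). Without the HF75 Week 3 array 0 of 12 were called against 8.27% of all genes (median -0.86). Of 6 endothelial markers 3 were higher with a median difference of 1.98 (2 of 6 and 1.90 without that array). Of 4 white adipocyte markers 3 were called, and 2, lower, without that array (median -1.70). Of 7 nerve and Schwann cell markers 3 were called, and 1, higher, without it (median 1.79). Of 7 macrophage markers 1 was called with and without it, and no skeletal muscle, lymphocyte or erythroid marker was. In whole tissue, fewer cells of a type and less RNA per cell cannot be told apart, and the part of these markers in the result was not tested.

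**Figure D3:**
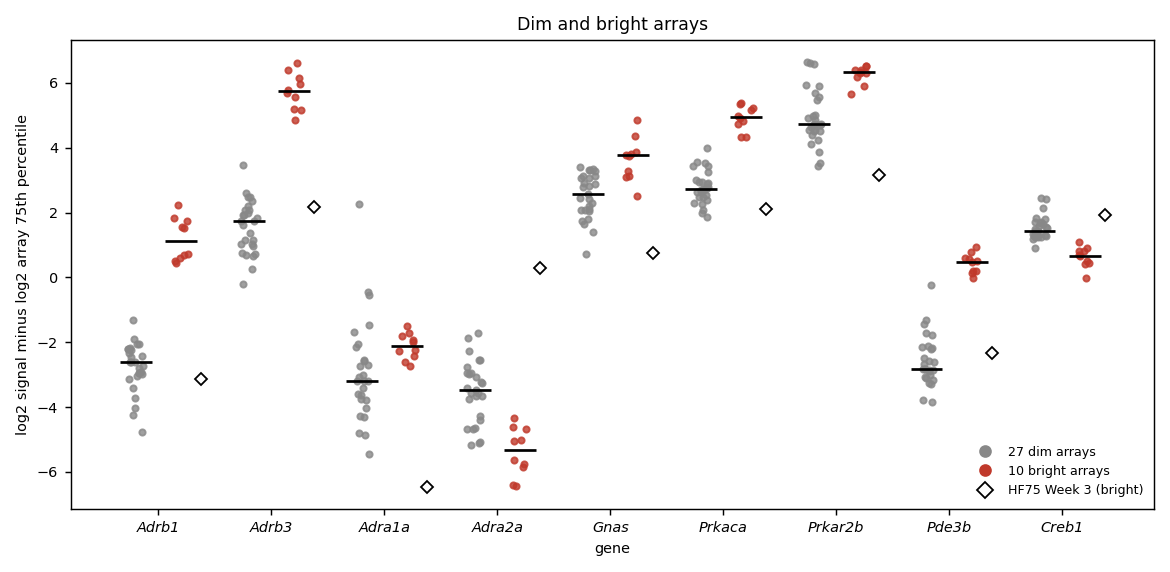
Values of the 9 genes (vertical axis, log2 signal relative to the 75th percentile of the array) on the 27 dim and 10 bright arrays, with the median as a black bar and the HF75 Week 3 array as a diamond. Adrb1, Adrb3, Prkaca and Pde3b do not overlap between the classes, and Adra2a and Creb1 have lower medians on bright arrays. The share of all genes without overlap was not counted.

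Among the 89 further pathway genes, 28 were called between HF75 and HF20, 13 higher and 15 lower, where 25.6% of all genes were called. Without the HF75 Week 3 array 3 were called, the cyclase Adcy3 (-2.82) and the phosphodiesterase Pde1a (-1.44) of these 28 and the anchor Akap8 (0.67), with 8.27% of all genes. With brightness or its class as a covariate, with normexp background correction or at the time points of matched class, none of all genes tested was called. The values that follow are from all arrays. At the receptor level the alpha-2 receptor Adra2c was higher (2.07), although it was well above background on 21 of 38 arrays. The cyclases were split, with Adcy4 higher by 2.31 and Adcy3, well above background on 23 arrays, lower by 2.86. Among G protein genes Gnai3 was higher by 0.84, while Gnao1 (well above background on 15 arrays) and Gnb2 were lower by 1.81 and 0.76. Among regulators of the receptor, the kinase gene Adrbk2 was lower by 2.48 and the arrestin Arrb2 higher by 0.77, and Maob was lower by 2.50. The PKA group gave 4 higher (Akap12 2.69, Pkig 1.18, Prkar1a 0.80, Akap11 0.71) and 2 lower (Akap1 -2.004, Akap7 -0.98), so that the anchors of PKA went both ways. Of the phosphodiesterases Pde4b (2.80), Pde2a (1.61) and Pde4c (0.92) were higher and Pde4d (-2.19, well above background on 14 arrays) and Pde1a (-1.41) lower, and the cAMP-activated exchange factor Rapgef3 was higher (1.89).

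Of 13 tested genes listed here as targets of cAMP in brown fat, 6 were lower in HF75 and 1 was higher, where 25.6% of all genes were called. The list also holds lipid droplet and lipase genes of adipocytes, and whether cAMP drove any of these differences was not tested. The lower ones were the lipid droplet coat gene Plin1 (-3.29), the coactivator Ppargc1a (-3.25), Vegfa (-3.13), the deiodinase Dio2 (-3.12) and the lipases Lipe (-1.81) and Pnpla2 (-1.03). The immediate early gene Fos was higher (4.28). The median over the 13 genes was -1.63 against 0.29 for all genes. Without the HF75 Week 3 array, on which Ucp1 and other brown fat genes were low, none of the 13 was called and the median was -0.86.

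A test of any difference among the 3 doses called 4 of the 9 genes, Gnas (adjusted p = 0.034), Adrb1 (0.039), Pde3b (0.045) and Adra2a (0.0498), where 13.4% of all genes were called. Their dose means spanned 1.75, 3.35, 2.39 and 2.36 on the log2 scale. In each of these genes the 20 µg group lay at one end and the 75 µg group at the other, so the means did not follow the dose. Of the other pathway genes 18 of 89 were called, Plin1 spanning 3.29 and Adcy3 2.86. Without the HF75 Week 3 array 0 of the 9 and no gene at all were called, and the same held on leaving out Week 6, 12 or 15.

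Ordered by mean over Weeks 3 to 18, HF20 was highest of the 5 groups for Adrb1, Adrb3, Gnas, Prkaca, Prkar2b and Pde3b and lowest for Adra2a and Creb1. HF75 was lowest for Adrb1, Adrb3, Adra1a, Gnas, Prkaca, Prkar2b and Pde3b. For Adrb3 the order ran from HF20 at 4.46 through LFC at 3.33, HFC at 2.28 and HF5 at 2.25 to HF75 at 1.37. For Gnas it ran from HF20 at 3.54 through HFC at 2.85, LFC at 2.56 and HF5 at 2.22 to HF75 at 1.79. Without the HF75 Week 3 array HF75 was still lowest for these genes except Adra1a, where HF5 was lowest (-3.05, against -2.99 in HF75). No pair of neighbours in any of the 9 orders differed beyond the spread, with adjusted p from 0.156 upward.

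Over the labelled time on diet, Gnas was the only one of the 9 genes called in the LFC and HFC arrays fitted as a set. It fell by 0.076 on the log2 scale per 7 days (SE 0.018, adjusted p = 0.042), where 1.63% of all genes were called. These were 238 rising and 118 falling, but 438 and 488 after quantile normalization and 67 and 594 after normexp background correction, with Gnas falling in each. In HFC it read 3.42 at Day 6 and 4.85 at Day 10 and declined to 2.20 at Week 15 and 2.06 at Week 18. In LFC it read 3.08 at Day 6 and 3.86 at Week 0 and then 2.09 at both Week 15 and Week 18. The last 2 time points were the lowest of their group on each diet. No scan day was shared between time points of these arrays, and the mice aged as the diet went on. Days on diet therefore cannot be told apart from scan day or age in this trend. The LFC and HFC arrays of a time point were treated as independent in it.

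The slope was also computed on the dim arrays alone. Their 75th percentiles still ran from 48.3 (HFC Week 9) to 429.8 (HFC Week 0), so that brightness was not held constant. On the 14 dim arrays of LFC and HFC the slope was -0.059 per 7 days (SE 0.013, adjusted p = 0.034). With brightness as a covariate it was -0.061 (adjusted p = 0.158), and without Week 18 it was -0.075 (adjusted p = 0.364). The adjusted p was also above 0.05 on leaving out Day 10 or Week 0, 3, 6 or 15. The slope of Adra1a was upward but not called (0.14, adjusted p = 0.099), and without Week 18 it was 0.05. The other 7 genes had slopes from -0.081 to 0.012, with adjusted p of at least 0.458. Of the further pathway genes 2 changed, the G protein regulator Rgs5, a pericyte gene (-0.076, adjusted p = 0.031), and the phosphodiesterase Pde11a (0.196, adjusted p = 0.048), the latter well above background on 14 of 38 arrays. The HFC minus LFC difference did not change with day for any of the 9 genes, and 0% of all genes passed that test (3348 unadjusted).

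**Figure D4:**
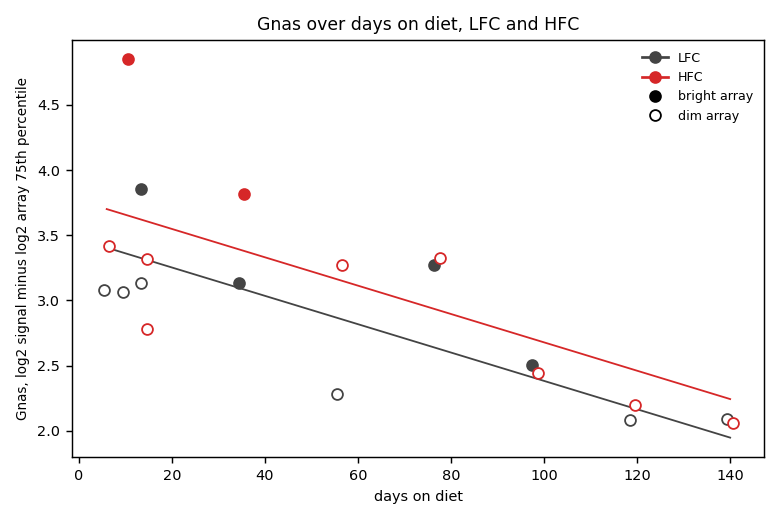
Gnas (vertical axis, log2 signal relative to the 75th percentile of the array) against days on diet in the 10 LFC and 10 HFC arrays, with the slope fitted in common. The values lie between 2.06 and 4.85 and are lowest at the last 2 time points of both diets.

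The values of these genes moved with array brightness within the groups. In a fit of all 38 arrays with group and time point in the model, 7 of the 9 were called between bright and dim arrays, 6 higher and 1 lower on bright ones, where 59.4% of all genes were called, 5129 higher and 7866 lower with a median of -0.31. After quantile normalization 5899 were higher and 4859 lower with a median of 0.06, and after normexp background correction the median was -0.76. The directions of the 7 called members were the same under both. Adrb3 ran from -0.19 to 3.46 with a median of 1.73 on 27 dim arrays, and from 4.85 to 6.61 with a median of 5.75 on the 10 bright arrays other than HF75 Week 3. These classes did not overlap, and their medians were 16.1-fold apart. The fitted difference, with HF75 Week 3 included, was 4.16 (SE 0.40, adjusted p = 1.7e-08).

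Adrb1 behaved alike. It ran from -4.78 to -1.31 on dim arrays and from 0.46 to 2.23 on bright ones, with medians of -2.62 and 1.12, 13.4-fold apart (fitted difference 3.63, SE 0.43, adjusted p = 2.1e-07). Pde3b had medians of -2.81, on an array not well above background, and 0.48, and Prkaca of 2.73 and 4.94, 4.63-fold apart, both without overlap. Within LFC (4 bright and 6 dim arrays), HFC (2 and 8) and HF20 (4 and 2), none of these 4 genes overlapped between classes. How many of all genes did not overlap was not counted, here or for the genes named below. With 59.4% of all genes called between the classes, the lack of overlap is not shown to be particular to these genes. The differences of means for Adrb3 were 4.93, 3.92 and 3.54 in the 3 groups, and for Adrb1 3.85, 3.77 and 4.13. A single diet or dose therefore held both the low and the high level of each gene.

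The other members followed less closely. Gnas was higher on bright arrays by 0.84 (SE 0.27, adjusted p = 0.009), and 6 of 10 bright arrays exceeded all dim ones. Prkar2b was higher by 1.26 (adjusted p = 0.007) with overlap, and all 10 bright arrays were saturated. Creb1 was lower by 0.88 (SE 0.20, adjusted p = 5.4e-04), with 8 of 10 bright arrays below all dim ones. Adra2a had a median of -5.34 on bright and -3.47 on dim arrays, with 5 of 10 bright arrays below all dim ones (fitted difference -1.13, adjusted p = 0.085). After quantile normalization its difference was -0.11. Adra1a differed by 1.05 (adjusted p = 0.192), and after normexp background correction by -0.66. Without the HF75 Week 3 array all 9 were called, Adra1a at 1.43 and Adra2a at -1.63 (adjusted p = 0.049 and 2.6e-04). The share of all genes called was 59.4% with that array and is not given here without it.

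Of the 89 further pathway genes 51 were called between bright and dim arrays, 19 higher and 32 lower on bright ones, where 59.4% of all genes were called. The median of the 89 was -0.29 and that of all genes -0.31. Higher on every one of the 10 bright arrays than on any dim array were Maob, the cyclases Adcy3 and Adcy9, the receptor kinase gene Adrbk2, the anchors Akap1 and Akap7, and the adipocyte genes Plin1, Lipe and Vegfa. Lower on every one were Gnai2, Adcy4, Akap12, Pde2a, Pde4b, Rapgef3, Rapgef4, Nr4a3 and Fos, although Rapgef4 and Nr4a3 were well above background on only 4 arrays each. Fos had a median of 5.25 on dim and -2.63 on bright arrays (fitted difference -6.97, adjusted p = 1.5e-08), Rapgef3 differed by -2.35 and Maob by 3.28.

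Markers of some other cells moved with the classes. The list means of macrophage, lymphocyte, skeletal muscle, white adipocyte and nerve markers overlapped between the classes. That of the macrophage markers ran from -1.69 to 0.14 on the 10 bright arrays and from -1.84 to 0.32 on dim ones. All 6 endothelial markers were lower on each of the 10 bright arrays than on any dim one, with a mean over the list from 0.62 to 2.22 against 3.16 to 4.70. All 6 erythroid markers were lower on bright arrays in the fit, but the globins Hba-a1 and Hbb-b1 were saturated on 29 and 33 of the 38 arrays and their differences have no settled size or direction. Their list mean ran from -1.15 to 0.28 against 0.41 to 3.80. Of the brown markers Adipoq and Plin1 were higher on every bright array than on any dim one, with 10 and 9 of the 10 bright arrays saturated, Fabp4 was saturated on all 38, and their list mean ran from 3.98 to 5.23 on bright and from 2.44 to 5.15 on dim arrays. Their part in the differences of the 9 genes was not tested. The HF75 Week 3 array, although bright, read like the dim arrays for Adrb1 (-3.14), Adrb3 (2.18), Prkaca (2.11) and Pde3b (-2.33), and its Adra2a of 0.29 was the highest and its Prkar2b of 3.15 and Adra1a of -6.47 the lowest of all 38.

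**Figure D5:**
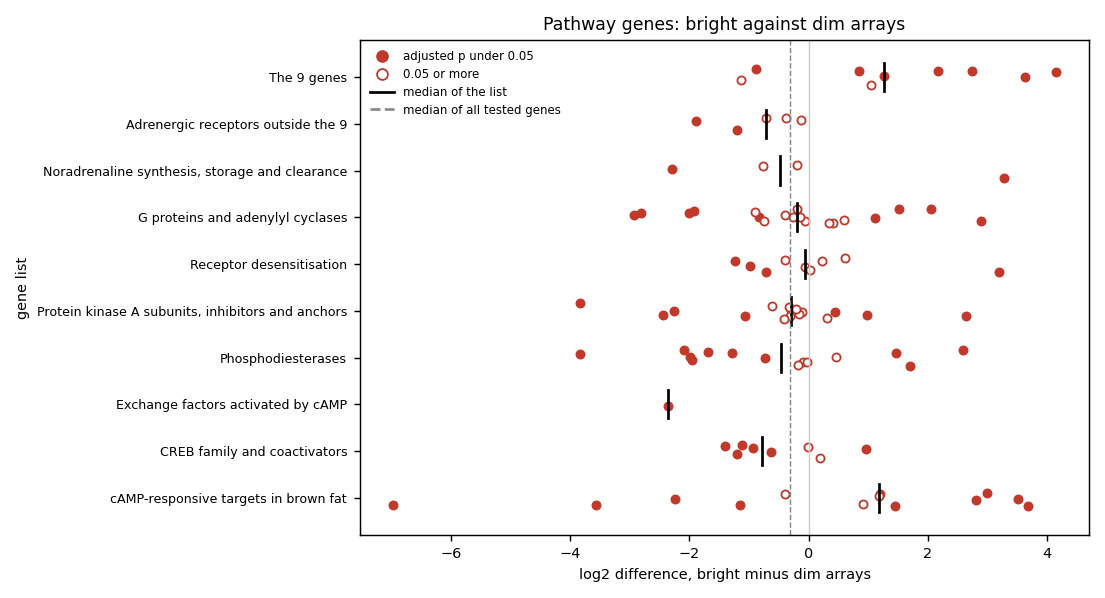
Fitted difference between bright and dim arrays (horizontal axis, log2) for the 9 genes and for the genes of each pathway list, one point per gene. Filled points have an adjusted p under 0.05, black bars are list medians and the dashed line is the median of all genes (-0.31), with the members Adrb3 (4.16), Adrb1 (3.63) and Pde3b (2.75) far to the right and Fos (-6.97) far to the left.

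Where a gene had several probes, these did not always move together. The other probe of Adrb1, well above background on 18 arrays, had medians of -4.65 on dim and -2.87 on bright arrays, a smaller gap in the same direction. Between HF75 and HF20 it differed by -0.69 (adjusted p = 0.500) where the main probe was called. The other probe of Adra1a differed by -3.24 (adjusted p = 0.016) in that comparison and the main probe was not called. All 3 probes of Adra2a were higher in HF75, by 1.95 to 2.41. The other 2 probes named Gnas were well above background on 5 and 1 of the 38 arrays and give no second reading of it. The other 2 of Creb1 differed by 0.30 and 0.46, both short of the threshold. Between HF75 and HFC these 2 differed by -0.68 and 0.62, neither called, so that 1 of them went against the main probe (0.54).

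The genes whose values were most like each member over the 38 arrays were ranked by Pearson correlation. These correlations are descriptions over arrays that share the brightness classes and the scaling. Adrb3 was most like Vldlr, Tmem60 and Mccc1 (r from 0.967 to 0.972), and over the 27 dim arrays most like Mccc1 (0.849). Mccc1, a subunit of an enzyme of leucine breakdown, thus remained among the 3 nearest in both sets. Adrb1 was most like Abhd15, Ppargc1b and Aga (0.942 to 0.949). Prkaca was most like Amacr, Ndufa3 and Mfn2 (0.975 to 0.978), and Prkar2b like Ldhb, Uqcrfs1 and Suclg1 (0.969 to 0.972). Pde3b was nearest to Fgfrl1, the glucose transporter Slc2a4 and Ormdl3 (0.925 to 0.933).

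Gnas was nearest to LOC638434, Rnf5 and Nfyc (0.894 to 0.916), Creb1 to Ski, Epc2 and Rhoj (0.915 to 0.926), Adra2a to Gata6, Lmod1 and Afap1l2 (0.881 to 0.899) and Adra1a to BC068157, Sult1c1 and Spag8 (0.825 to 0.843). With log2 brightness regressed out, Mccc1, Pex11a and Scp2 were nearest to Adrb3 (0.957 to 0.965), Grtp1, Sdhb and 2610029I01Rik to Adrb1 (0.910 to 0.913), Ndufa3, Clpp and Amacr to Prkaca (0.971 to 0.977) and Ces3, Slc2a4 and Adora1 to Pde3b (0.868 to 0.874). Gata6, LOC100044693 and Colec11 were then nearest to Adra2a (0.890 to 0.898), and Hapln4, Zfp2 and BC068157 to Adra1a (0.838 to 0.859). Creb1 and Prkar2b kept the same 3 genes.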

How the data were processed

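Total RNA of brown adipose tissue was labelled with Cy3 and hybridised to Agilent-type mouse arrays of 1 colour. Per the submitters' processing notes the scans were read with Agilent Feature Extraction 9.1. The authors deposited spot intensity files with the processed signal, which Feature Extraction had corrected for background but not scaled between arrays. The files of 4 Week 9 arrays hold 3 significant digits. A deposited table of the authors' log2 ratios against LFC was not used.

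Control spots and outlier-flagged spots were left out, spots of a probe were averaged, signals were put on the log2 scale and each array was centred on its 75th percentile. A missing value stayed missing (1050 over all tested genes, 0 among the 9 genes). The probe with the highest mean over the 38 arrays stood for a gene, and tests covered the 21862 of 29411 genes that were called well above background on 6 or more arrays. limma 3.58.1 in R 4.3.3 was fitted with time point as a block (the trend with diet and day only), and p-values were adjusted by Benjamini-Hochberg over all tested genes. The replicate number in the labels follows the time point, which is the pairing of the groups. Days on diet were 14 plus 7 per labelled week. The code of the fits was tried on simulated data with independent noise, less spread than the real arrays and no brightness classes. That trial says nothing about error rates on the real arrays. The named genes were the 9 members, pathway genes past an adjusted p of 0.05 in a comparison, the 3 pathway genes with the smallest p in HFC against LFC and in each dose against HFC, and the 3 genes with the highest Pearson r with each member (for Gnas with brightness regressed out, not reported here). The members and lists were chosen with earlier results of these data known, and the bright and dim comparison and the set without the HF75 Week 3 array were added after seeing the data. For the 51 pathway genes called between bright and dim arrays only those with non-overlapping classes were named. Other tools were pandas 2.3.3, numpy 2.4.6 and matplotlib 3.10.9. The number of arrays limits the precision.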

Additional observations from a re-analysis of the deposited data

Results flagged for a closer look

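Of 45 sets of a gene in a group, 3 held an array farther from the others than the 95% limit of Dixon's test allows, where chance gives about 1 in 20. Adra1a read 2.25 in HFC at Week 18, the highest of 10, with the nearest value at -1.47 (gap over range 0.523, limit 0.466). Adra2a read -5.16 in HF5 at Week 9, the lowest of 6, with the nearest at -3.76 (0.672, limit 0.625), and its probe was not well above background there. Prkar2b read 3.15 in HF75 at Week 3, the lowest of 6, with the nearest at 4.41 (0.687, limit 0.625), on the array whose brown adipocyte markers were low.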

How the results depend on the processing

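Of the values of single genes recomputed under another setting, 860 kept direction and side of the threshold, 50 changed direction, 74 were no longer called and 6 became called. No value of HF75 against HFC changed direction or was called. Settings marked here as added (without the HF75 Week 3 array, same brightness class, dim arrays only) were chosen after seeing the data, and the cause of the changes was not tested.

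Between HF75 and HF20, 0 of the 9 genes and 0 of all genes were called with normexp, with brightness or its class as a covariate and at time points of the same class, all 5 of the 5 members tested over genes well above background on all arrays, and 2 of the 9 and 1807 of all genes without the HF75 Week 3 array. Leaving out single time points gave 0 to 9 of the 9 and 0 to 6649 of all genes, with 0 of the 9 without Week 6, 12 or 15. Among the 3 doses 0 of the 9 and 0 of all genes were called with normexp, brightness, its class, no filter or without the HF75 Week 3 array, 8 of the 9 and 6466 of all genes with slide as a random block, 8 and 4613 with array weights, and 0 to 7 and 0 to 5395 leaving out single time points (0 without Week 3, 6, 12 or 15). With no replicate block, that is, with the pairing by time point dropped, 1 of the 9 and 1237 of all genes were called among the doses and 8 and 4000 between HF75 and HF20.

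For the trend 2 of the 9 and 661 of all genes were called with normexp, 0 and 2 with brightness, 926 of all genes after quantile normalization and 829 on dim arrays. Leaving out single time points gave 0 to 1 of the 9 and 7 (Week 18) to 649 (Day 6) of all genes. For the product of diet and day 1 gene was called with brightness and 0 to 373 (Week 0) leaving out single time points. Counts over all genes reached 5 for HFC against LFC with all 38 arrays in 1 fit and 0 to 2 leaving out time points, 0 to 3596 for HF20 against HFC (Week 3 left out), and 1 for HF75 against HFC after quantile normalization, over genes well above background on all arrays, with the class as a covariate and at most (0 to 1) leaving out time points.

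Changes of direction fell on values that were not called. In HFC against LFC these were Creb1 0.06 (quantile; -0.153 to 0.075 leaving out time points), Adra2a 0.22 (normexp), Adrb1 0.071, Adrb3 0.088 and Prkaca 0.011 (class), and Adrb1 0.32, Adrb3 0.30 and Prkaca 0.10 (brightness). In HF5 against HFC they were Adrb1 0.23, Prkaca -0.13 and Pde3b 0.002 (quantile), Adrb1 0.39, Adrb3 0.66, Prkar2b 0.068 and Pde3b 0.043 (class), Adra2a -0.001 and Prkar2b 0.051 (normexp), Adrb1 0.40, Adrb3 0.64 and Pde3b 0.045 (brightness), Adrb1 0.30, Adrb3 0.80, Adra2a -0.03 and Prkar2b 0.35 (same class), and Adrb1 0.25, Adrb3 0.78, Adra2a -0.054 and Prkar2b 0.10 (array weights). Leaving out time points gave Adrb1 -0.629 to 0.301, Adrb3 -0.392 to 0.805, Adra2a -0.027 to 0.776, Prkaca -0.123 to 0.605 and Prkar2b -0.418 to 0.348. In HF20 against HFC they were Adra2a 0.10 (quantile), Pde3b -0.14 and Creb1 0.10 (class), and Adrb1 -0.16, Adrb3 -0.04, Adra2a 0.38, Prkaca -0.039, Pde3b -0.81 and Creb1 0.22 (same class), and Adra1a ran from -1.242 to 0.077 leaving out time points. Adra1a turned to 0.067 in HF75 against HF20 and to -0.66 between bright and dim arrays with normexp.

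Signal over background limited Adra2a, Adra1a, Adrb1 and Pde3b on dim arrays, and saturation limited Prkar2b and Adrb3 on bright ones.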
